A study of Mus musculus with 10 samples.

Results

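Semaphorins and their receptors, the plexins and neuropilins, were followed in mouse dendritic cells. All genes whose mouse symbol is that of a semaphorin of classes 3 to 7, a plexin or a neuropilin were taken, whatever their level, which gave 31 of the 41813 genes in the tables: 20 semaphorins, 9 plexins and 2 neuropilins. The cells were bone marrow-derived dendritic cells recorded as positive for CD11c and high in MHC class II, and RNA was measured in 3 libraries titled activated and 3 titled non-activated. By the series design, both groups were given LPS, the bacterial lipopolysaccharide sensed by TLR4, and kept for 24 h with CD4+ OT-II T cells, and only the activated group had been pulsed with the ovalbumin peptide OVA323-339 that those T cells recognise. The sample labels differ from this: they record LPS stimulation for the activated cells and none for the others. Activated and non-activated are therefore used as in the titles. The strain, age and number of animals behind a library are not stated in the labels, nor whether replicates were separate cultures, and the p-values speak only for how these libraries varied, which may be technical. The other 4 samples, labelled ATAC-seq, were not analysed here.

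Semaphorins are ligands that share the sema domain: class 3 members are secreted, classes 4 to 6 span the membrane and Sema7A is held there by a lipid anchor. Plexins are their main receptors and act inside the cell on small GTPases, while neuropilins bind class 3 semaphorins and VEGF and pass the signal on through plexins. In the immune system Sema4A on dendritic cells can costimulate T cells, Sema7A binds plexin C1 and the integrin alpha1beta1, and plexin A1 acts in dendritic cells, where it can receive Sema6D together with TREM2 and its adaptor DAP12.

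Summed expected counts were 21338012 to 27404937 per library, and levels are given in TPM (transcript abundance scaled to a fixed total and to length, so that genes can be compared). None of the 19 dendritic cell markers was at 0 in all 6 libraries, but Cd209a had at most 2 counts in any. Xcr1 and Clec9a reached at most 1.30 and 3.15 TPM. The markers summed to 19439 to 25166 TPM in activated and 19559 to 23990 TPM in non-activated cells. Most of that sum came from Cd74 (7148 to 10612 against 9579 to 11675 TPM), H2-Ab1 and H2-Aa. Of the 18 dendritic cell markers tested, 9 were higher in activated cells and 1 lower. The background for this and the marker counts below was 15.9% of all tested genes higher and 11.7% lower. For T cells, the other cell type in the culture, Cd3d, Cd3e and Cd3g together reached 0.890 to 5.49 TPM in the activated group and 0.210 to 0.650 TPM in the other. Both replicate 1 libraries stood apart in 2 genes of that list. Trbc2, a constant gene of the T cell receptor beta chain, was at 297 and 292 TPM there and at most 5.57 TPM elsewhere. Trac, that of the alpha chain, had 41160 TPM in the activated and 41069 TPM in the non-activated one against 14.4 to 160 TPM in the other 4. None of the 24 T cell markers was at 0 in all 6 libraries, and of 13 tested 4 were higher and 1 lower. Their summed level was 100 to 41549 TPM in activated and 73.9 to 41404 TPM in non-activated libraries, and without Trac and Trbc2 it was 44.7 to 91.8 and 43.7 to 58.0 TPM. Mast cell and basophil markers summed to 17.3 to 20.8 TPM in activated and 38.6 to 42.1 TPM in the other libraries. Most of this was Kit (11.2 to 13.8 against 22.5 to 25.5 TPM) and Gata2 (4.70 to 7.57 against 15.0 to 17.6 TPM). Fcer1a, Cpa3, Mcpt4 and Mcpt8 reached at most 0.17, 0.73, 0.08 and 1.13 TPM in any library, and Cma1 and Tpsb2 were at 0. B cell markers summed to 121 to 137 against 95.4 to 106 TPM, with none at 0. Blnk made up most of that sum (110 to 128 against 93.6 to 103 TPM). Macrophage and monocyte markers summed to 2258 to 2899 TPM in activated and 2124 to 2734 TPM in non-activated libraries. All 12 of these were tested, with 1 higher and 1 lower. In bulk RNA, fewer cells of a type and less RNA per cell cannot be told apart, and the part of RNA from other cell types in the results was not tested.

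Of the 31 members 19 passed the filter on low counts. In edgeR's quasi-likelihood test with Benjamini-Hochberg adjustment over all genes, 9 of these were higher in activated cells, 3 were lower and 7 did not pass at an adjusted p of 0.05. The background was 27.6% of 13946 tested genes called, 15.9% higher and 11.7% lower. By counts, the 3 largest fold changes upward were those of Sema7a (4.08-fold), Sema3f (3.92-fold) and Sema6d (2.92-fold), and the largest downward was that of Sema4f, at 0.236 times the non-activated level. The median log2 fold change of the 19 members was 0.49, against 0.01 over all tested genes. In CPM (counts scaled to library size) the groups did not overlap for 12 of the 19, the same 12 genes that were called, against a background of 44.7% of all tested genes. Without both replicate 1 libraries 9 members were higher and 2 lower, against 1810 and 1464 of all tested genes, with log2 fold changes of 1.86 for Sema7a, -0.93 for Plxnc1 and -2.53 for Sema4f.

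**Figure D1:**
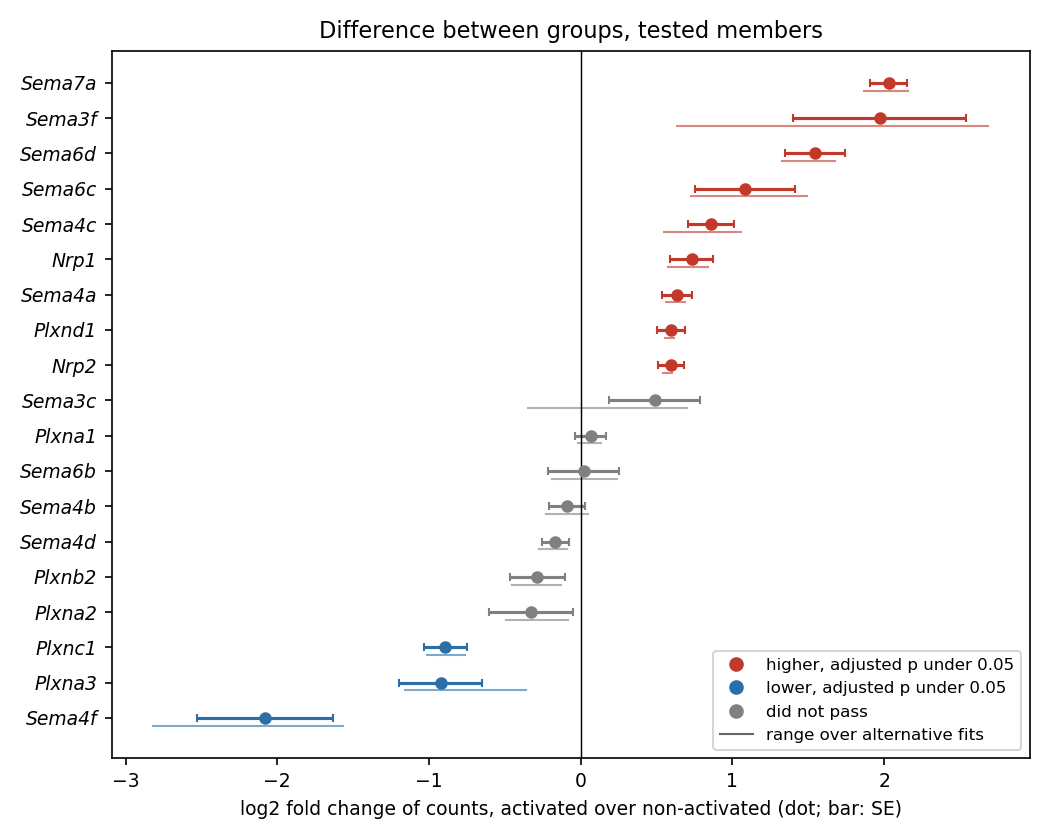
Log2 fold change of counts (activated over non-activated, dot; bar, SE) for the 19 tested members, with a thin line for the range of the estimate over 16 alternative fits. Sema7a, Sema3f and Sema6d lie farthest to the right and Sema4f farthest to the left, and the Sema3f range is wide.

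Among semaphorins, 6 of 11 tested members rose, 1 fell and 4 did not pass, against 15.9% higher and 11.7% lower over all tested genes. Sema7a, the lipid-anchored semaphorin, stood at 965, 835 and 873 TPM in activated replicates 1 to 3 and at 193, 210 and 256 TPM in the non-activated ones. The lowest activated library was more than 3 times the highest non-activated one. The log2 fold change was 2.03 ± 0.12 (SE, n = 3 per group; edgeR adjusted p = 2.32e-05), and the call held under all 16 alternative fits. Among all genes of the tables Sema7a ranked 643rd by mean TPM in non-activated cells and 126th in activated cells.

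Plexin C1, the plexin that binds Sema7A, went the other way. Plxnc1 stood at 31.2, 25.4 and 36.7 TPM in activated and 58.6, 51.4 and 66.4 TPM in non-activated replicates 1 to 3, and the groups did not overlap. Its log2 fold change was -0.89 ± 0.14 (SE, n = 3 per group; edgeR adjusted p = 0.00239), a call that held under all 16 alternative fits. The ratio of Sema7a to Plxnc1 TPM was 23.8 to 32.8 in activated libraries and 3.30 to 4.08 in non-activated ones. Integrin genes for the other Sema7A receptor were also lower. Itga1, the alpha1 chain, was at 5.12 ± 1.22 against 9.12 ± 1.61 TPM (SD, n = 3 per group; edgeR adjusted p = 0.00879). Itgb1, the beta1 chain that many integrins share, was at 213 ± 15.2 against 267 ± 17.3 TPM (edgeR adjusted p = 0.0312). The Itgb1 call was lost under 6 of 16 alternative fits. The 6 included the fits without activated replicate 3 (edgeR adjusted p = 0.0827) or non-activated replicate 1 (0.0595), 2 (0.114) or 3 (0.0788). The span across all alternatives was 0.00112 to 0.195. Itga1 lost its call without both replicate 3 libraries (0.0704; 5.15e-05 to 0.0704 over all alternatives).

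**Figure D2:**
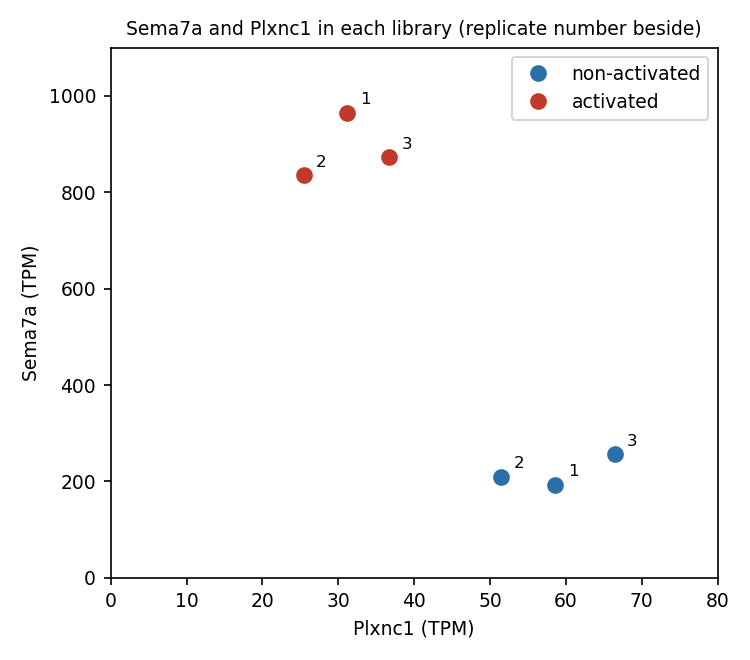
Sema7a against Plxnc1 in TPM, 1 dot per library with its replicate number. The 3 activated libraries lie at the upper left (835 to 965 TPM of Sema7a) and the 3 non-activated ones at the lower right (193 to 256 TPM).

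The bases upstream of the transcript start are printed for this ligand and receptor and for Sema4f, the member with the largest fall, from RefSeq on GRCm38.p6. They are the 250 bases before the start in the promoter table, 5′ to 3′ on the gene's strand. The Sema7a stretch is chr9:57939862-57940111 (plus strand), that of Plxnc1 chr10:94944846-94945095 (minus strand) and that of Sema4f chr6:82939770-82940019 (minus strand). The Sema7a and Plxnc1 starts lie inside the RefSeq gene intervals (chr9:57939596-57962865 and chr10:94790866-94945015), so their stretches overlap the genes' own first bases. Capitals mark letters that match the NF-kappaB-like motif GGGNNNNNCC, the ISRE-like motif GAAANNGAAA, the GAS motif TTCNNNGAA or the AP-1 motif TGANTCA on either strand.
Sema7a: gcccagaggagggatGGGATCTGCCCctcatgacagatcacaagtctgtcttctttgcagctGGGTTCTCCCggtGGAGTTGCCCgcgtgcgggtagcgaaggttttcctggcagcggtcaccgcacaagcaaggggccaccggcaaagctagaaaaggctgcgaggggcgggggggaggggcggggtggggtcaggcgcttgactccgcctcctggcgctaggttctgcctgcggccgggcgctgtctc
Plxnc1: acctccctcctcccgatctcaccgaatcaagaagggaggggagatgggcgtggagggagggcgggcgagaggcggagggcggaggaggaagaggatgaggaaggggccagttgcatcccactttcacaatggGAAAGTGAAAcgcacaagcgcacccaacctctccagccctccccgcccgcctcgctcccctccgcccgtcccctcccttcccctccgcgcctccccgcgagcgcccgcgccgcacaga
Sema4f: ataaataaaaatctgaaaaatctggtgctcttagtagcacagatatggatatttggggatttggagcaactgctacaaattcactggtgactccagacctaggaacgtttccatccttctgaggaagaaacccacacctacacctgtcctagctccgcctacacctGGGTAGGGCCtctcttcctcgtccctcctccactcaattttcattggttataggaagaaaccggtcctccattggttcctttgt

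The Sema7a capitals are NF-kappaB-like letters that start 235, 234, 188 and 175 bases before the transcript start, the first pair overlapping. Plxnc1 had 1 ISRE-like match, 118 bases before the start, and Sema4f 1 NF-kappaB-like match, 84 bases before it. In all, 26 of the 31 members had an entry in the table, with 37 windows of 300 bases (250 before and 50 after a start). The NF-kappaB-like letters were in 25 of the 37 windows (67.6%) and in 50.8% of all 32851 windows. The ISRE-like letters were in 2 (5.4%, against 3.4% of all windows), GAS in 1 (2.7%, against 8.3%), AP-1 in 3 (8.1%, against 7.8%) and the E-box CANNTG in 21 (56.8%, against 72.3%). These are matches of letters and not binding sites, and no binding was measured.

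Sema6d, a transmembrane semaphorin, stood at 54.0, 35.0 and 43.8 TPM in activated and 16.5, 12.3 and 18.2 TPM in non-activated replicates 1 to 3. The groups did not overlap, and the log2 fold change of 1.55 ± 0.20 (SE, n = 3 per group; edgeR adjusted p = 0.000814) held its call under all 16 alternative fits. Plexin A1, the receptor that binds Sema6D, did not pass. Plxna1 was at 117, 139 and 129 TPM against 125, 121 and 127 TPM, with overlapping groups (log2 fold change 0.07 ± 0.10, edgeR adjusted p = 0.676). Tyrobp, which encodes DAP12, was lower, at 77.5 ± 10.8 against 122 ± 21.3 TPM (SD, n = 3 per group; edgeR adjusted p = 0.0238). The Tyrobp call was lost under 6 of 16 alternative fits. The 6 included the fits without activated replicate 3 (edgeR adjusted p = 0.0738) or non-activated replicate 1 (0.068) or 2 (0.0562). The span across all alternatives was 0.00174 to 0.0738. Trem2 was at 170 ± 54.0 against 267 ± 59.1 TPM and did not pass (edgeR adjusted p = 0.0623; 0.00164 with the replicate number as a block).

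Sema4a, the costimulatory semaphorin, stood at 368, 439 and 471 TPM in activated and 260, 262 and 298 TPM in non-activated replicates 1 to 3. All 3 activated libraries were above the non-activated ones, with a log2 fold change of 0.63 ± 0.10 (SE, n = 3 per group; edgeR adjusted p = 0.00225) that held its call under all 16 alternative fits. Timd2, which encodes a receptor of Sema4A, was at 1.64 ± 1.28 against 0.910 ± 0.260 TPM and did not pass (edgeR adjusted p = 0.0948). Sema4c stood at 12.5, 12.2 and 12.9 TPM in activated and 7.11, 8.83 and 9.41 TPM in non-activated replicates 1 to 3. Its log2 fold change was 0.86 ± 0.15 by counts (SE, n = 3 per group; edgeR adjusted p = 0.00407) and 0.55 on log2(TPM + 0.5), both called. The mean transcript length that the authors' files give for Sema4c was 3200 to 3658 bases in activated and 2602 to 3172 bases in non-activated libraries, so the TPM difference was smaller than that in counts.

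Sema4d, which has roles in T cell and B cell activation, did not pass: 85.0, 84.3 and 96.1 TPM in activated against 104, 102 and 99.0 TPM in non-activated replicates 1 to 3 (log2 fold change -0.17 ± 0.09, edgeR adjusted p = 0.224). In TPM its groups did not overlap, whereas in CPM they did. Cd72, which encodes a Sema4D receptor of immune cells, was at 9.13 ± 3.82 against 15.6 ± 0.631 TPM and did not pass either (edgeR adjusted p = 0.136; 0.00502 with the block). Sema4b (15.5 ± 2.22 against 16.6 ± 1.59 TPM, SD, n = 3 per group), Sema6b (1.91, 3.33 and 3.89 against 2.79, 2.99 and 3.23 TPM) and Sema3c (1.09 ± 0.437 against 1.33 ± 0.0862 TPM) did not pass, with edgeR adjusted p of 0.613, 0.962 and 0.271. The Sema3c difference was positive by counts (log2 0.49) and negative on log2(TPM + 0.5) (-0.25). TPM divides by the mean transcript length, which for Sema3c was 3554 to 4987 bases in activated and 1959 to 2748 bases in non-activated libraries.

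The other 3 semaphorins called rested on few reads. Sema4f fell, with 104, 22 and 39 counts in activated and 334, 217 and 156 counts in non-activated replicates 1 to 3, which is 0.400 to 1.41 TPM against 2.78 to 4.63 TPM. The groups did not overlap, and the log2 fold change was -2.08 ± 0.45 (SE, n = 3 per group; edgeR adjusted p = 0.00978). The Sema4f call was lost without both replicate 2 libraries (edgeR adjusted p = 0.0579) and without both replicate 3 libraries (0.0693), within 3.16e-06 to 0.0693 over all alternatives, and without activated replicate 1 the log2 fold change was -2.82. Sema6c had 46, 50 and 73 counts against 38, 25 and 21 (log2 fold change 1.08 ± 0.33, edgeR adjusted p = 0.0415). Its call was lost under 8 of 16 alternative fits (0.0266 to 0.278 over all), among them those without activated replicate 2 (0.0934) or 3 (0.14) and non-activated replicate 2 (0.118) or 3 (0.13). Sema3f, a secreted semaphorin that binds neuropilin 2, had 19, 19 and 11 counts against 8, 2 and 3 (log2 fold change 1.97 ± 0.57, edgeR adjusted p = 0.0341). That call was lost under 9 of 16 alternative fits (0.027 to 0.222 over all), among them those without activated replicate 1 (0.0784) or 2 (0.106) and non-activated replicate 2 (0.12) or 3 (0.119), and without non-activated replicate 1 the log2 fold change was 2.69. In TPM the groups overlapped for both Sema6c and Sema3f, and the Sema3f log2 difference was 0.64 on log2(TPM + 0.5) and 1.04 on log2(TPM + 0.1).

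**Figure D3:**
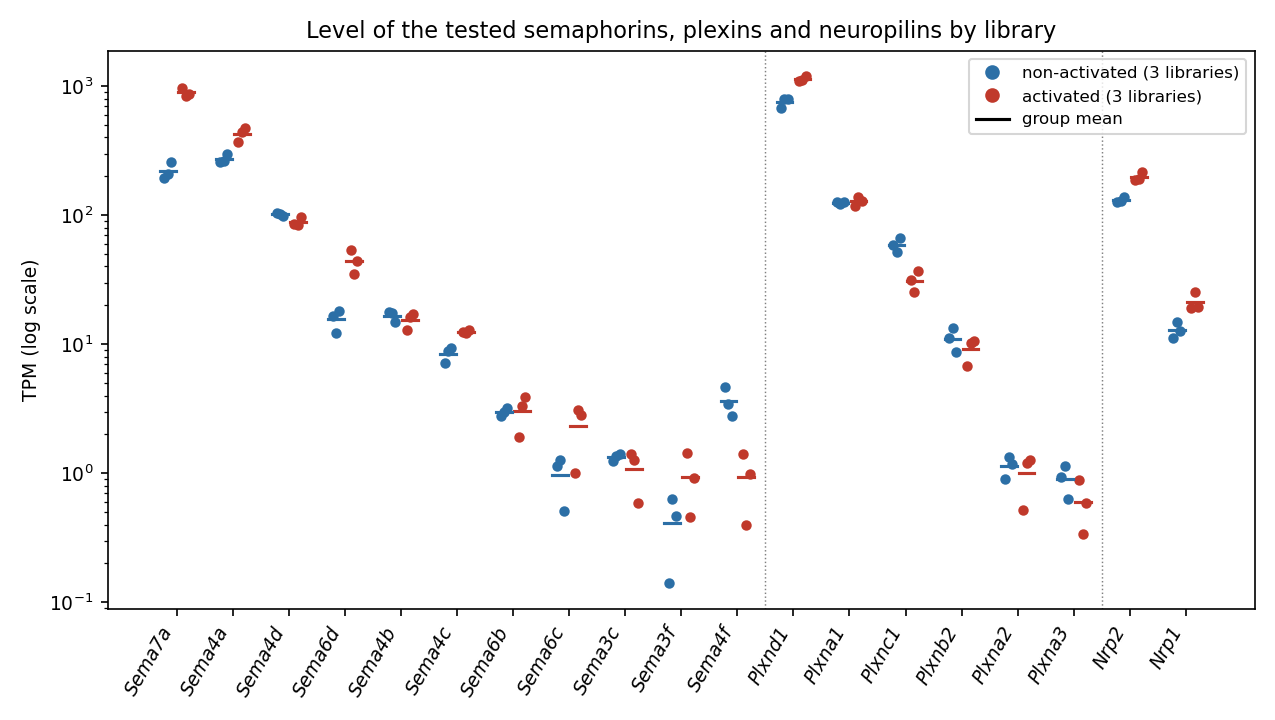
TPM of the 19 tested members in each library on a log scale (dots, 3 per group; lines, group means), semaphorins to the left, plexins in the middle and neuropilins to the right. Sema7a is the top semaphorin in activated libraries (835 to 965 TPM), Sema4a in non-activated ones (260 to 298 TPM), and Plxnd1 the top receptor in all 6.

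Both neuropilins rose. Nrp2 stood at 186, 190 and 215 TPM in activated and 127, 129 and 138 TPM in non-activated replicates 1 to 3, with a log2 fold change of 0.59 ± 0.09 (SE, n = 3 per group; edgeR adjusted p = 0.00165). Nrp1 stood at 19.2, 25.3 and 19.4 TPM against 11.1, 14.8 and 12.8 TPM, with a log2 fold change of 0.73 ± 0.14 (edgeR adjusted p = 0.00578). Neither pair of groups overlapped, and both calls held under all 16 alternative fits. Nrp2 was 7.51 to 11.0 times as high as Nrp1 in activated and 8.72 to 11.5 times in non-activated libraries, so the ratio overlapped between groups.

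Of the 6 tested plexins 1 rose, 2 fell and 3 did not pass, against 15.9% higher and 11.7% lower over all tested genes. Plxnd1, which encodes the receptor of Sema3E, was the most abundant of all 31 members, at 1088, 1105 and 1193 TPM in activated and 681, 793 and 796 TPM in non-activated replicates 1 to 3. It ranked 93rd among all genes by mean TPM in activated and 159th in non-activated cells. The groups did not overlap, with a log2 fold change of 0.60 ± 0.09 (SE, n = 3 per group; edgeR adjusted p = 0.00205). That call was lost without both replicate 3 libraries (edgeR adjusted p = 0.0519, with the log2 fold change at 0.60; 1.3e-11 to 0.0519 over all alternatives). TPM divides by the mean transcript length, which was 2934 to 3137 bases for Plxnd1 and 8481 to 8995 bases for Plxna1. By counts alone Plxnd1 still led the members, with 159987 summed counts in activated libraries against 134958 for Sema7a. Sema3e, which encodes a ligand of plexin D1, had 0 to 4 counts per library.

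Plxnc1 fell as given above. Plxna3 was lower by counts, with 40, 22 and 41 in activated against 81, 64 and 57 in non-activated replicates 1 to 3 (log2 fold change -0.92 ± 0.27, edgeR adjusted p = 0.0369), and its groups overlapped in TPM. The Plxna3 call was lost under 11 of 16 alternative fits, including each one that left out a single library (without activated replicates 1 to 3, edgeR adjusted p = 0.0639, 0.0935 and 0.0504; without non-activated replicates 1 to 3, 0.124, 0.0936 and 0.0588; 0.0346 to 0.358 over all). Plxnb2, whose product binds Sema4C and Sema4D, was at 6.83, 10.3 and 10.6 TPM against 11.2, 13.3 and 8.72 TPM, and Plxna2 at 0.520, 1.21 and 1.27 TPM against 0.900, 1.33 and 1.17 TPM. Neither passed (edgeR adjusted p = 0.281 and 0.429), and in both the groups overlapped.

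In all, 12 members did not pass the filter on low counts, with at most 11 counts in any library: Sema3a, Sema3b, Sema3d, Sema3e, Sema3g, Sema4g, Sema5a, Sema5b, Sema6a, Plxna4, Plxnb1 and Plxnb3. Plxnb1, which encodes the main high-affinity receptor of Sema4D, had 0 to 7 counts per library, Plxnb3 1 to 9 and Plxna4 0 to 11. Sema3a, which binds neuropilin 1, had 4 to 10 counts. Sema4g, Sema6a, Sema3d, Sema3b and Sema3g had at most 7, 6, 5, 4 and 2. Sema5a and Sema5b were at 0 in all 6 libraries, which in the 73701641 summed counts of the activated libraries allows at most 3 counts, or 0.0407 CPM (0.0412 CPM in the non-activated group), for counting error only. With no filter on low counts, 29 members had a fit and the 12 called ones were the same number, 9 higher and 3 lower. Over all genes that fit gave 2144 higher and 1855 lower, against 2216 and 1632 in the main fit.

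Ligands and receptors were then set side by side. The 20 semaphorins summed to 1431 to 1524 TPM in activated and 608 to 706 TPM in non-activated libraries, a ratio of group means of 2.30. The 11 receptors summed to 1449 to 1606 and 1016 to 1150 TPM, a ratio of 1.38. In neither sum did the groups overlap. Semaphorin over receptor TPM was therefore 0.949 to 1.04 in the activated group and 0.553 to 0.613 in the other. The members called were 7 of 11 tested semaphorins (6 higher, 1 lower) and 5 of 8 tested receptors (3 higher, 2 lower), with median log2 fold changes of 0.63 and -0.11. Over all tested genes 27.6% were called, 15.9% higher and 11.7% lower, with a median of 0.01. Sema7a made up 57.3% to 64.1% of semaphorin TPM in the activated group and 31.8% to 36.3% in the other. The share of Sema4a went the other way, 24.5% to 30.9% against 42.1% to 42.7%, although its own level was higher in activated cells. Sema4d made up 5.95% ± 0.335 against 15.8% ± 1.59 (SD, n = 3 per group). Plxnd1 made up 73.8% to 75.1% of receptor TPM in activated cells and 67.0% to 70.5% in the others. These sums and shares describe the members and were not tested.

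**Figure D4:**
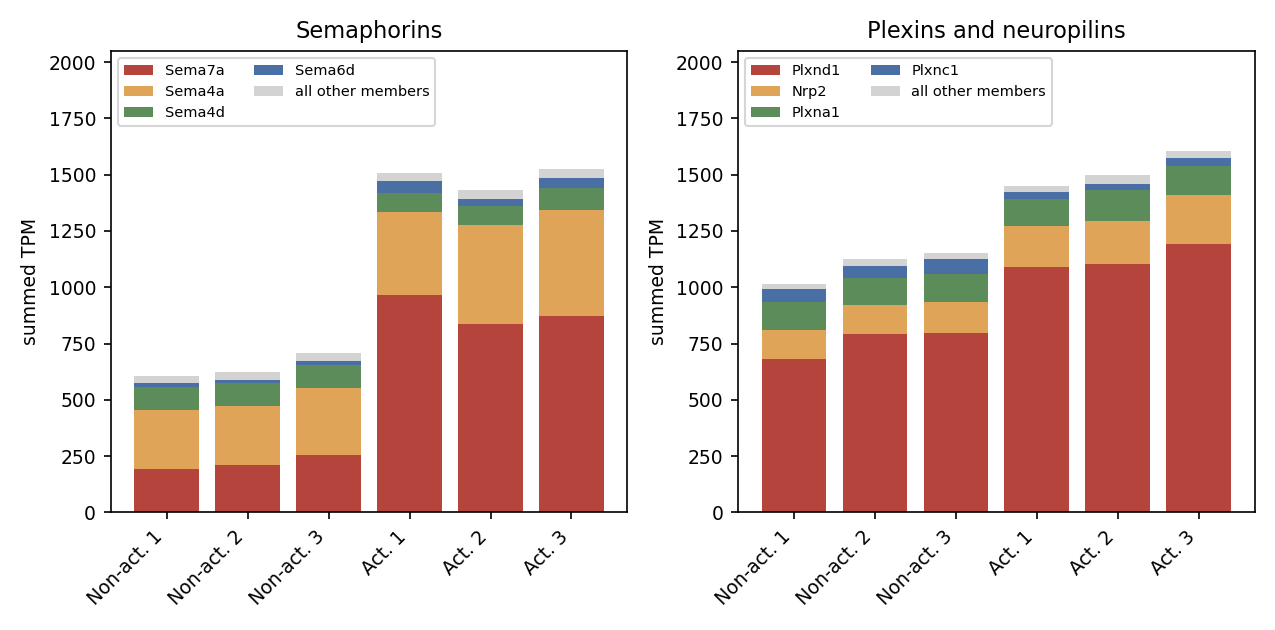
Summed TPM of the 20 semaphorins (left) and of the 11 plexins and neuropilins (right) in each library, stacked by member. The semaphorin columns are 608 to 706 TPM in non-activated and 1431 to 1524 TPM in activated libraries, the Sema7a block growing most, and Plxnd1 fills most of each receptor column.

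Other genes of the pathway were taken from 5 lists. The background for each list was 15.9% of all tested genes higher and 11.7% lower, with a median log2 fold change of 0.01. Of the coreceptors and receptors other than plexins, 1 of 13 tested genes rose, 4 fell and 8 did not pass (median log2 fold change -0.15). With the block 3 rose and 6 fell, while calls over all tested genes went from 2216 to 2787 higher and from 1632 to 2397 lower. Erbb2, a receptor tyrosine kinase that pairs with plexins of the B class, stood at 7.03, 8.70 and 5.74 TPM in activated and 0.130, 0.150 and 0.580 TPM in non-activated replicates 1 to 3. It was 29.9-fold higher by counts (log2 4.90 ± 0.30, SE, n = 3 per group; edgeR adjusted p = 2.38e-05). The 4 that fell were Itga1, Itgb1 and Tyrobp, given above, and the adhesion molecule L1cam (12.2 ± 5.11 against 19.0 ± 3.68 TPM). The L1cam call (edgeR adjusted p = 0.0312) was lost under 8 of 16 alternative fits. The 8 included log2(TPM + 0.5) and log2(TPM + 0.1) (limma adjusted p = 0.134 and 0.133). They also included the fits without activated replicate 1 (edgeR adjusted p = 0.0698) or 2 (0.0716) or non-activated replicate 2 (0.0737) or 3 (0.11). The span across all alternatives was 0.00138 to 0.159. Met, another partner of B class plexins, and Kdr, a VEGF receptor that pairs with neuropilins, did not pass (52.7 ± 9.72 against 42.0 ± 6.06 and 29.9 ± 8.84 against 25.6 ± 0.754 TPM; edgeR adjusted p = 0.149 and 0.38), and Met passed with the block (0.0172).

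Of the other neuropilin ligands 1 of 9 tested fell and 8 did not pass (median log2 fold change -0.17). Over all tested genes 15.9% were higher and 11.7% lower. With the replicate number as a block 3 fell, Vegfa, Tgfb1 and Lgals1, while lower calls over all tested genes went from 1632 to 2397. The one that fell was Vegfa, at 202, 125 and 160 TPM in activated against 571, 398 and 496 TPM in non-activated replicates 1 to 3 (log2 fold change -1.46 ± 0.20, SE, n = 3 per group; edgeR adjusted p = 0.00101). Its groups did not overlap, and its direction was opposite to that of Nrp1 and Nrp2. Tgfb1, which can also bind neuropilin 1, was at 179 ± 13.7 against 214 ± 19.9 TPM and did not pass (edgeR adjusted p = 0.129; 0.0486 with the block).

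Of the proteases that can cut or process these proteins, 6 of 11 tested rose, 1 fell and 4 did not pass (median log2 fold change 0.31). Over all tested genes 15.9% were higher and 11.7% lower. Adamts4, an aggrecan-cutting protease, stood at 4.30, 5.18 and 4.82 TPM against 0.140, 0.160 and 0.110 TPM, 34.6-fold higher by counts (edgeR adjusted p = 3.93e-06). Mmp14, a membrane-bound protease that can release Sema4D from the cell surface, was 1.48-fold higher (214 ± 25.7 against 145 ± 6.75 TPM, SD, n = 3 per group; edgeR adjusted p = 0.00324). Adam12 and Adam15 were 2.51-fold and 1.67-fold higher. The Adam12 call was lost on log2(TPM + 0.5), where its log2 difference was 0.49 against 1.33 by counts (limma adjusted p = 0.14, with a span of 9.76e-05 to 0.155 across all alternatives), and those of Mmp14 and Adam15 without both replicate 3 libraries (edgeR adjusted p = 0.0662 and 0.077). Adam8 fell, from 656 ± 5.90 to 411 ± 50.6 TPM (edgeR adjusted p = 0.00252). The sheddase Adam17 was 1.24-fold higher (edgeR adjusted p = 0.0118), a call lost without non-activated replicate 2 (0.0602) or 3 (0.0566), with a span of 0.00433 to 0.129 across all alternatives. Adam10 and Furin, the proprotein convertase, did not pass (edgeR adjusted p = 0.263 and 0.397).

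Downstream of plexins, 8 of 22 tested GTPases and regulators rose, 2 fell and 12 did not pass (median log2 fold change 0.07). The background was again 15.9% of all tested genes higher and 11.7% lower. Rhob was 6.29-fold higher, at 341 ± 25.2 against 54.8 ± 8.27 TPM (SD, n = 3 per group; edgeR adjusted p = 4.02e-06), whereas Rhoa (257 ± 0.997 against 247 ± 9.58 TPM) and Rac1 (351 ± 47.0 against 355 ± 20.0 TPM) did not pass. Rnd3, which encodes a small GTPase that binds plexins, was 2.70-fold higher, and Rnd1 (3.44 ± 0.546 against 2.53 ± 0.762 TPM) did not pass. Rap1b, a Ras-family GTPase of the kind that plexins switch off, was 1.46-fold higher. Mras and the Rac activator Tiam1 fell to 0.547 and 0.685 times the non-activated level, and the Tiam1 call was lost without both replicate 2 libraries (edgeR adjusted p = 0.105). The RhoA activator Arhgef12 was 1.22-fold higher (edgeR adjusted p = 0.0383), a call lost under 11 of 16 alternative fits. Among these were 5 that left out a single library: activated replicate 1 (0.0544), 2 (0.135) or 3 (0.0729) and non-activated replicate 2 (0.135) or 3 (0.135), with a span of 0.0224 to 0.268 across all alternatives.

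Of the cytoskeletal genes and kinases 8 of 28 tested rose, 6 fell and 14 did not pass (median log2 fold change 0.14). The background was 15.9% of all tested genes higher and 11.7% lower. With the block 11 rose and 7 fell. Over all tested genes the block also raised both counts, from 2216 to 2787 higher and from 1632 to 2397 lower. The MICAL enzymes, which oxidise actin downstream of plexins, moved apart. Mical2 fell from 11.2 ± 2.10 to 1.39 ± 0.534 TPM (SD, n = 3 per group; edgeR adjusted p = 1.52e-05). Mical3 rose from 5.53 ± 2.00 to 18.3 ± 5.29 TPM (edgeR adjusted p = 1.52e-05). Mical1 was at 34.0 ± 5.67 against 36.9 ± 5.15 TPM and did not pass. Fyn, a kinase that binds plexins of the A class, fell from 70.5 ± 9.24 to 25.7 ± 1.56 TPM. Ptk2, which encodes focal adhesion kinase, and Cdk5r1, the activator of Cdk5, were 2.45-fold and 3.24-fold higher. Dpysl2, which encodes the semaphorin mediator CRMP2, was at 9.86 ± 2.04 against 7.83 ± 0.741 TPM and did not pass (edgeR adjusted p = 0.0896; 0.0287 with the block).

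**Figure D5:**
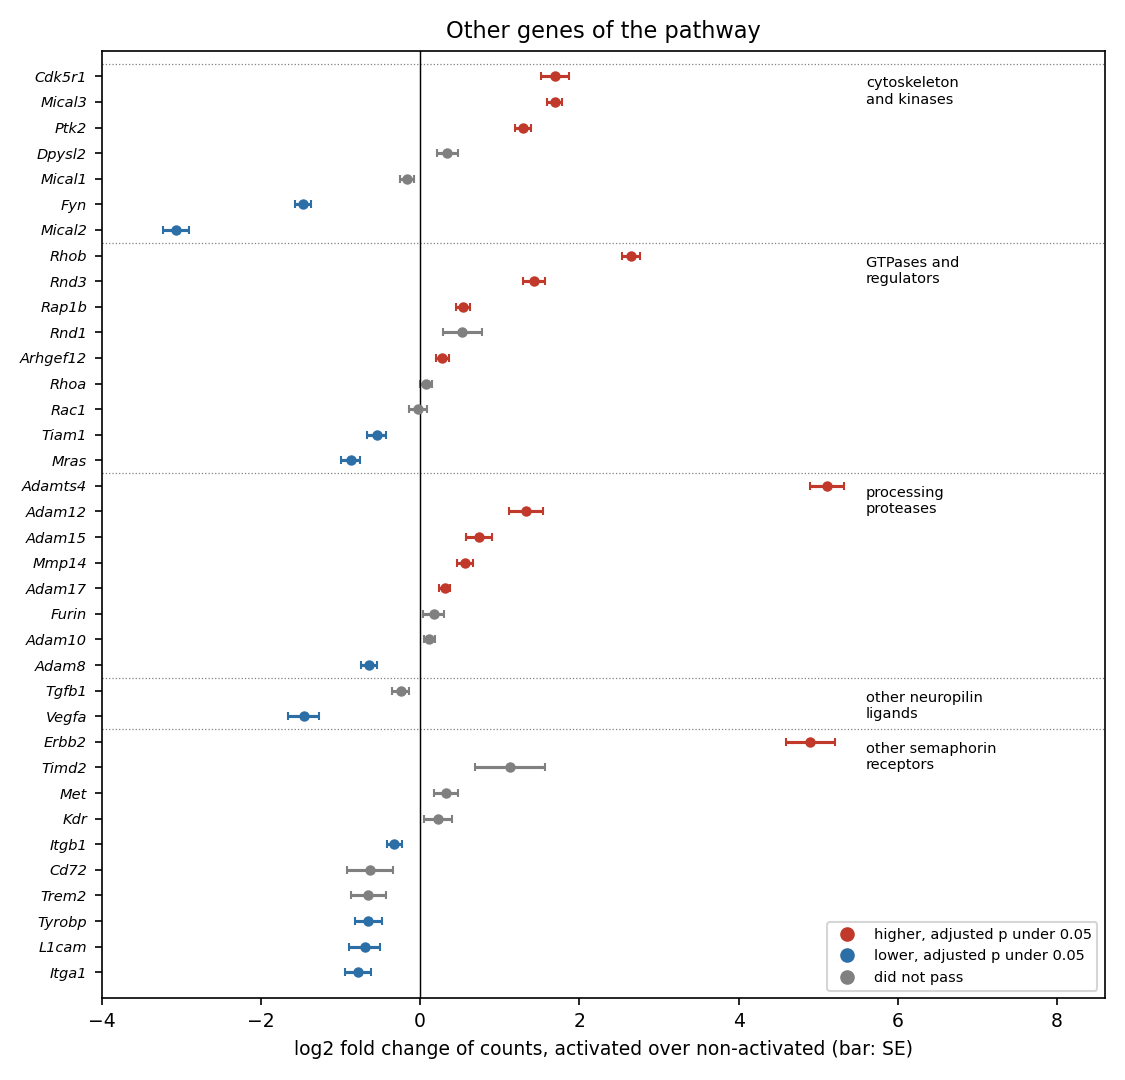
Log2 fold change of counts (activated over non-activated; bars, SE) for the named genes of the 5 other pathway lists, separated by dotted lines. Adamts4 (34.6-fold) and Erbb2 (29.9-fold) lie farthest to the right and Mical2 farthest to the left.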

How the data were processed

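RNA of 6 libraries (3 activated, 3 non-activated) was analysed. Per the labels' protocols, 200 ng of total RNA was used with a NEBNext Ultra kit and read as single reads of 60 nt. The protocols do not state that strand was kept, and 15 members overlap another RefSeq gene; of these 18 genes, 6 were found by symbol, with at most 14 counts in all.

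The authors deposited RSEM gene tables with an expected count, TPM and FPKM (not used in a test) per gene, and a transcript length in other columns, per the file headers. The submitters' processing notes name GRCm38, and no aligner for the RNA is named in the sources used here. Symbols matched 41597 of 41813 gene IDs; genes without one took at most 0.0452% of counts.

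Expected counts were rounded and fitted across all genes in R 4.3.3 with edgeR 4.0.16 (filterByExpr, TMM, quasi-likelihood test, Benjamini-Hochberg, threshold 0.05); the SE is the log2 fold change over the root of F. The scripts were tested on simulated data. Alternatives used DESeq2 1.42.0, other filters and scaling, limma 3.58.1 on log2(TPM + 0.5) or log2(TPM + 0.1), a replicate block, and fits without 1 or 2 libraries. The common biological coefficient of variation was 16.9%. Replicates differed beyond sampling noise (chi-square per degree of freedom 15.3 to 72.7). Libraries with the same replicate number deviated together from their group means (correlations 0.40, 0.31 and 0.19, against -0.32 to 0.04 for others). Equal numbers may thus be pairs, but what a number marks is not stated. The main fit left this pairing out, so the edgeR adjusted p are unpaired unless the block is named.

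Members and lists were chosen with earlier results of these data known. All members are named; of the other lists, 20 genes whatever their result and up to 5 called genes with the smallest adjusted p per list. Leaving Trac and Trbc2 out of the T cell sum was chosen after seeing the data.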

Additional observations from a re-analysis of the deposited data

How the results depend on the processing

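Of the 12 members called, 7 (Sema7a, Sema6d, Sema4a, Sema4c, Nrp1, Nrp2 and Plxnc1) kept their call and direction under all 16 alternative fits, and 5 lost it under at least 1. How many of all called genes kept theirs under all 16 was not counted. The replicate block gave 9 members higher and 3 lower, the same calls as without it; the pairing thus changed no call on a member. Over all tested genes the block gave 2787 higher and 2397 lower, against 2216 and 1632 without it. With that rise over all genes, 10 genes of the other pathway lists gained a call and none lost one. Leaving out libraries gave 6 to 9 members higher and 1 to 2 lower, and the deposited TPM 7 and 2. Over all tested genes, leaving out libraries gave 1185 to 1956 higher and 600 to 1673 lower. The TPM fits gave 1556 higher and 1124 lower with a pseudocount of 0.5, and 1543 and 1121 with 0.1. Requiring at least 1.5-fold gave 9 members higher and 3 lower, against 1440 and 769 of all tested genes. The differences of 4 members that had not passed changed sign, the cause of which was not tested. In log2, Plxna1 went to -0.017 without activated replicate 2 (-0.017 to 0.136 over fits that left out libraries), Sema4b to 0.047 without replicate 1 (-0.231 to 0.047), and Sema3c to -0.25 and -0.35 on TPM with a pseudocount of 0.5 and 0.1. Sema6b went to -0.009 with no filter, -0.027 and -0.037 on TPM, -0.022 with the block, and between -0.186 and 0.238 when libraries were left out. Sema3f, Sema6c and Plxna3 had at most 19, 73 and 81 counts in a library, and the 12 members below the filter at most 11; whether more reads would change their calls was not tested.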
